A study of Homo sapiens with 6 samples.

Results

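Nucleolar ribosome biogenesis factors are the proteins that cut, modify, fold and package the ribosomal RNA precursor into the small (40S) and large (60S) ribosomal subunits. The genes described here were chosen by name and not by a cutoff on any measured value, although earlier results of these data were known. A symbol qualified if it began with NOP, UTP, RRP, NOC, NOL or IMP followed by a number, which gave 42 genes, and 19 further nucleolar factors such as FBL, NCL, NPM1 and BOP1 were listed by name. Together they make up 61 of the 60605 genes in the table. Of the 61, 58 have known roles in ribosome assembly. The other 3, NOL3, NOL4 and NOL4L, carry the NOL symbol without such a known role and are given separately.

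The samples were SW480 cells, profiled by sequencing of poly(A) RNA. SW480 is a long-established line from a human colon adenocarcinoma. In 3 libraries the cells carried an empty lentiviral vector, called vector here, and in 3 libraries they overexpressed TIPE, another name of TNFAIP8. TNFAIP8 is a cytosolic protein induced by tumour necrosis factor. Both groups had received a lentivirus and were kept under puromycin to select cells carrying it, so the control cells share these treatments. The labels do not say whether a library came from a single clone, a pool or a separate infection or culture, so a p-value here reflects how far these libraries differ from each other, and that variation may be technical.

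Ribosome assembly begins in the nucleolus, where RNA polymerase I transcribes the ribosomal RNA precursor. Small nucleolar ribonucleoproteins (snoRNPs) guide methylation and pseudouridylation of that precursor, while a large particle called the small-subunit processome forms around its start and a separate set of factors builds the 60S subunit. Growing and dividing cells, tumour cells among them, make ribosomes at a high rate, and many of these factor genes are known targets of the transcription factor MYC.

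Library totals ran from 13957349 to 20345330 counts and overlapped between the groups, and a count of 0 allows at most 0.147 to 0.215 CPM (counts scaled to the library total), which covers counting error only. TNFAIP8 stood at 0.84 to 1.34 FPKM (counts per kilobase of exonic gene size, scaled to the library total) in vector libraries and at 530 to 626 FPKM in TIPE libraries. TIPE replicate 3 lay apart from its group on the second principal component, at 22.2 against -18.3 and -7.13 for TIPE replicates 1 and 2. Cytosolic ribosomal protein genes took 6.21 to 6.56% of all counts in vector and 8.08 to 8.67% in TIPE libraries. Of 10 colon epithelial markers 7 were measured at 0.5 FPKM or more, with KRT20, GPA33 and CDH17 near 0, and their summed level was 1246 to 1341 FPKM in vector and 1608 to 1664 FPKM in TIPE libraries. Most of that sum came from KRT8, KRT18 and KRT19, which were higher with CDX2, whereas CDH1 was lower (35.9 against 13.7 FPKM, log2 fold change -1.32, adjusted p = 4.14e-12, edgeR), as was EPCAM (-0.20, adjusted p = 0.0309, edgeR). EPCAM overlapped between the groups in FPKM, and did not pass with limma or without any single vector library, among others. VIL1 did not pass (-0.10, adjusted p = 0.185, edgeR). After the correction for GC content and gene size given below, KRT19 did not pass either (0.03, adjusted p = 0.645, edgeR). Of the immune, fibroblast and endothelial markers, 1 of 5, 1 of 5 and 0 of 4 reached that level, and PTPRC, CD3E, COL1A2 and KDR had no counts in any library. Immune markers summed to 0.45 to 0.59 FPKM in vector and 0.33 to 0.77 FPKM in TIPE libraries, fibroblast markers to 1.78 to 2.84 and 2.36 to 3.32 FPKM, and endothelial markers to 0.14 to 0.21 and 0.21 to 0.3 FPKM. The part of these differences in the results below was not tested.

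The factors split by gene rather than moving as a block. Of the 61 genes, 59 reached the minimum of 0.5 mean FPKM for testing, and 22 of those were higher and 12 lower in TIPE than in vector libraries by edgeR's quasi-likelihood test with a Benjamini-Hochberg adjusted p under 0.05, while 25 did not pass. Among all 14205 genes tested, 41.5% passed, with 20.9% higher and 20.7% lower, against 57.6%, 37.3% and 20.3% of the factors. The factors are expressed at higher levels than most genes, and among the 9502 genes at or above the level of the lowest factor tested, 49.7% passed, with 25.9% higher and 23.8% lower. Without TIPE replicate 3, 25 factors were higher and 12 lower, while 6337 of all genes passed, against 5902 with it. The median log2 fold change (TIPE over vector) of the factors was 0.10, within a range of -0.36 to 0.69, and that of all genes tested was -0.00. As a share of all counts, the factors together took 1.089, 1.067 and 1.058% in vector libraries (replicates 1 to 3) and 1.046, 1.057 and 1.118% in TIPE libraries, so that the groups overlapped. In bulk RNA, fewer cells with a transcript and less of it per cell cannot be told apart.

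How many factors appear higher or lower depends on the scaling. The fitted values use TMM library factors, which place TIPE libraries 0.071 higher on the log2 scale, relative to vector libraries, than the deposited FPKM do. Scaled to library totals alone, 15 factors were higher and 14 lower by edgeR's test, where 42.4% of all genes passed, 15% higher and 27.3% lower. By limma on log2(FPKM + 1), 16 were higher and 13 lower, where 36.3% of all genes passed, 13.5% higher and 22.8% lower. In the FPKM themselves, the 3 TIPE values lay above the 3 vector values for 18 factors (30.5%, against 19% of all genes tested) and below them for 18 factors (30.5%, against 31.5%).

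**Figure D1:**
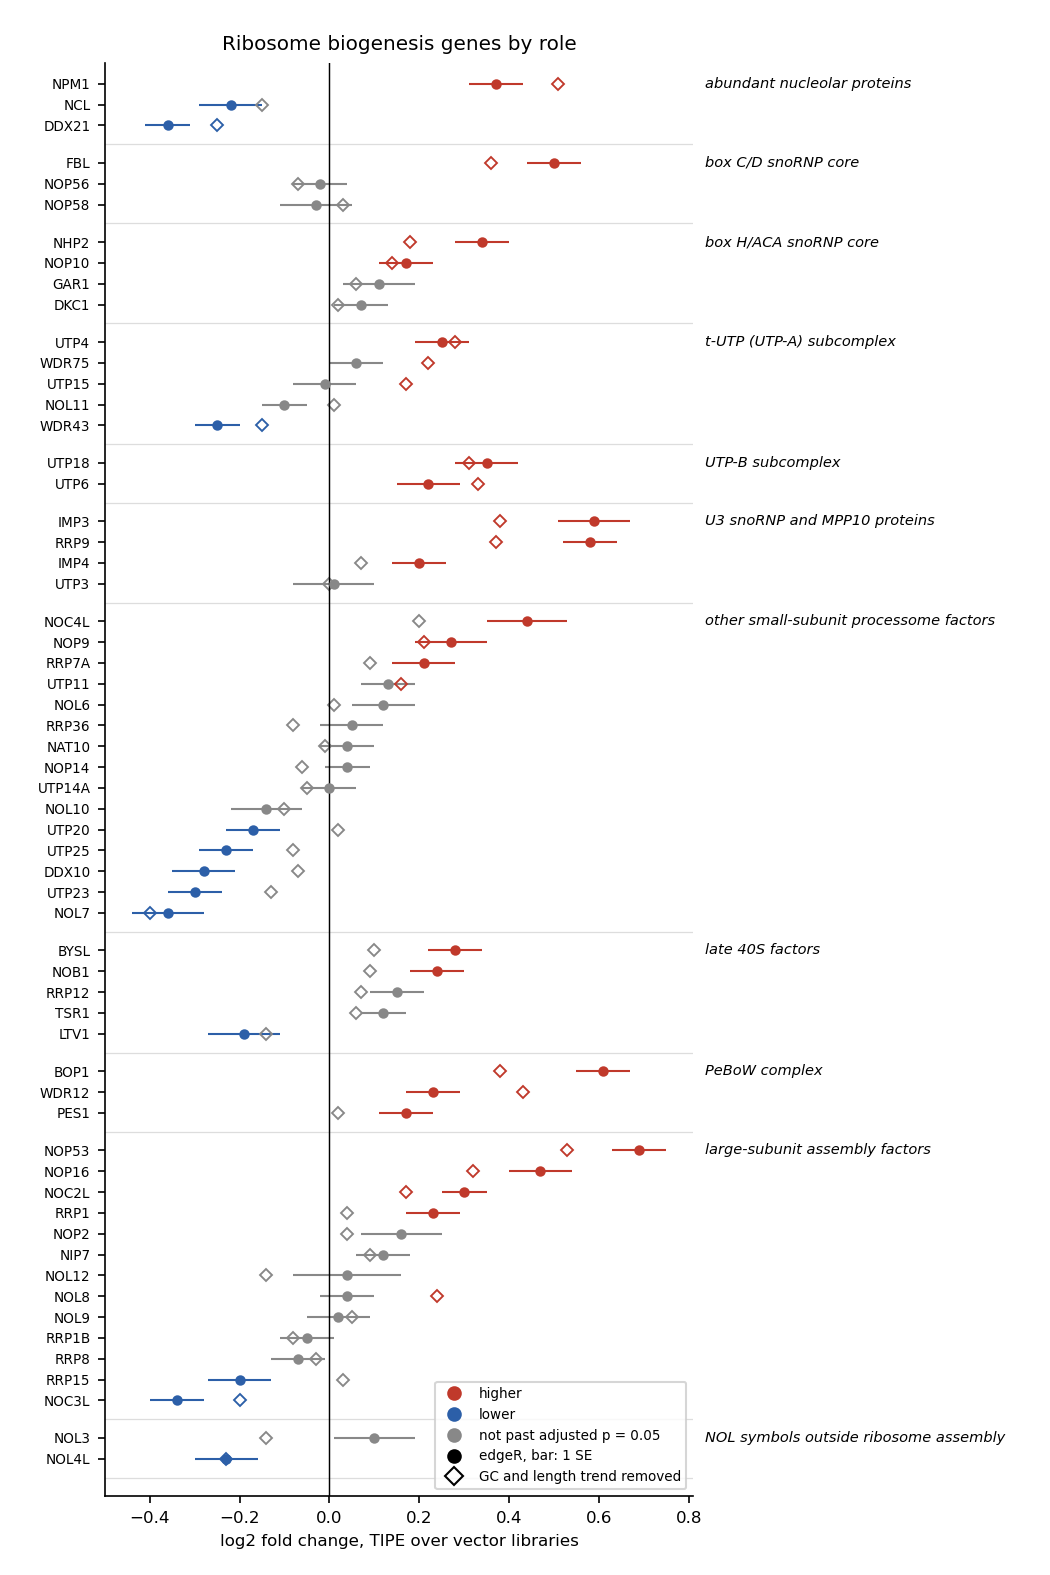
Log2 fold change (TIPE over vector, edgeR) of each of the 59 factors tested, grouped by role in ribosome assembly, with filled points and bars of 1 standard error for the TMM-scaled fit, diamonds for the fit with the GC and length trend removed, and colour for the outcome of the test. Filled points run from -0.36 (DDX21, NOL7) to 0.69 (NOP53), and the small-subunit and large-subunit factors hold genes on both sides of 0.

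By level, the factors spanned from NOP10, a small structural protein of the H/ACA snoRNPs, at 270.1 ± 11.1 FPKM in vector libraries (SD, n = 3) down to NOL12, an RNA-binding protein of the nucleolus, at 2.52 ± 0.21 FPKM. In vector libraries 7 factors stood at 100 FPKM or more, 39 at 10 to under 100, 13 at 1 to under 10, and 2 at 0. The median over the 61 was 22.0 FPKM, against 5.21 FPKM over all genes tested. NOP10 was followed by DDX21, NOB1, NCL, NOP56, FBL and NPM1, and among these only NOP56 overlapped in its vector values with the next in order, FBL. Along the whole order, 35 of 60 neighbouring pairs overlapped in vector libraries. In TIPE libraries FBL moved from position 6 to 2, DDX21 from 2 to 4 and NCL from 4 to 7. FPKM divides by the exonic size over all isoforms, which is 8919 bp for NCL and 8311 bp for NPM1, so that the level of a gene with long rare exons is understated.

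**Figure D2:**
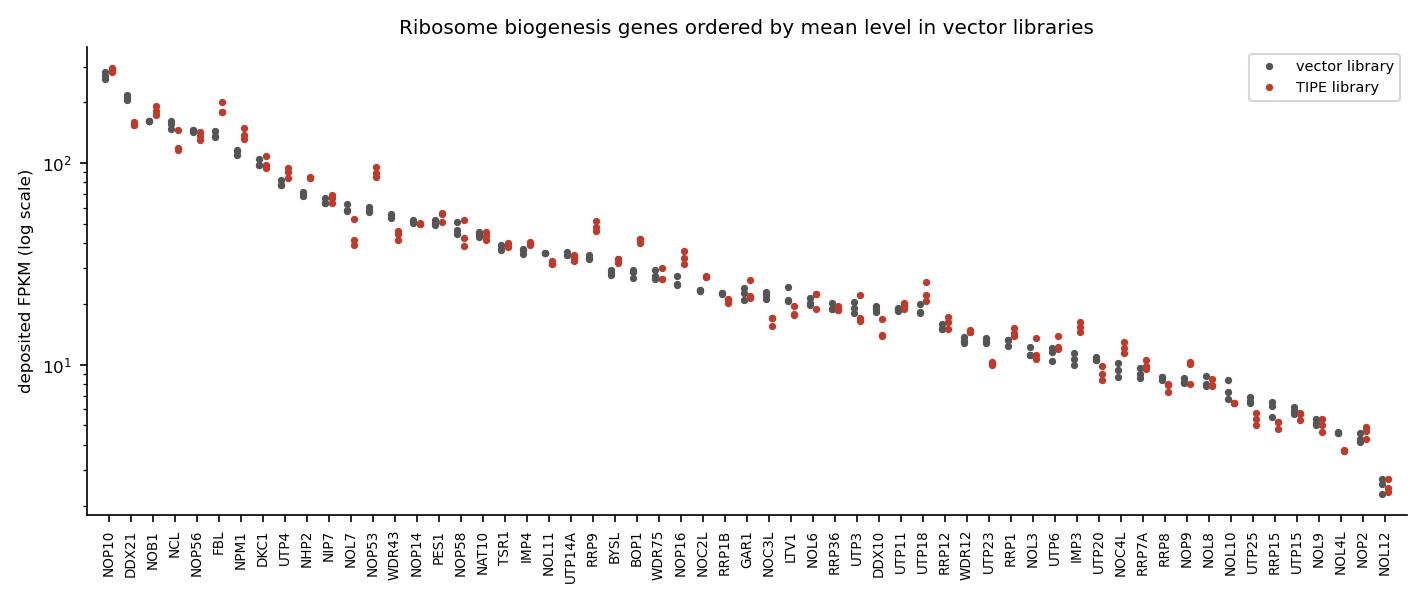
Deposited FPKM (log axis) of each factor with counts in the 3 vector and 3 TIPE libraries, 1 point per library, in order of its mean level in vector libraries. NOP10 leads at 270.1 FPKM in vector libraries and NOL12 is lowest at 2.52 FPKM, and for most genes the distance between the groups is small against the range of levels.

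The abundant multifunctional proteins of the nucleolus went in opposite directions. DDX21, an RNA helicase that acts in ribosomal RNA transcription and processing (chr10:68956170-68985068, plus strand, hg38), was at 217, 210.4 and 204 FPKM in the vector libraries, in the order of replicates 1, 2 and 3 used throughout, and at 159.8, 154 and 155 FPKM in the TIPE libraries. All 3 TIPE values lay well below the vector values, and the log2 fold change was -0.36 ± 0.05 (SE, adjusted p = 1.90e-05, edgeR). NCL, or nucleolin, an RNA-binding chaperone of the ribosomal RNA precursor (chr2:231453531-231483641, minus strand), was at 160.2, 156 and 147 FPKM in vector and 118, 116 and 145 FPKM in TIPE libraries. TIPE replicate 3 came close to the lowest vector library, and the log2 fold change of -0.22 ± 0.07 (adjusted p = 0.0129, edgeR) did not pass when vector replicate 1, vector replicate 2, TIPE replicate 1 or TIPE replicate 2 was left out, at adjusted p of 0.0604, 0.052, 0.0549 and 0.0811. Over all alternatives for NCL the adjusted p ran from 2.19e-06 to 0.13.

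NPM1, or nucleophosmin, the chaperone of the outer nucleolar layer (chr5:171387116-171411810, plus strand), was at 116, 114 and 109 FPKM in vector and 131, 137 and 149 FPKM in TIPE libraries. The groups did not overlap, and NPM1 rose by a log2 fold change of 0.37 ± 0.06 (SE, adjusted p = 3.75e-05, edgeR). NPM1 has 49 pseudogene rows in the table, whose counts came to 5.42% of the counts of NPM1, most of them in NPM1P27 at a mean of 62.7 FPKM. Reads shared between NPM1 and these copies make its value uncertain. NPM1P27 was also higher in TIPE libraries, at a log2 fold change of 0.26 ± 0.07 (adjusted p = 0.0037, edgeR).

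In the box C/D snoRNPs, which methylate ribosomal RNA, the enzyme rose and the scaffold proteins NOP56 and NOP58 did not pass. SNU13, another core protein of these particles and outside the set, rose by 0.39 ± 0.05 on the log2 scale (SE, adjusted p = 6.59e-06, edgeR). With the trend on GC content and gene size removed, SNU13 was at 0.28 (adjusted p = 0.000125, edgeR). FBL, or fibrillarin, the methyltransferase (chr19:39834458-39846379, minus strand), was at 136, 134 and 143 FPKM in vector and 179, 179.5 and 199.7 FPKM in TIPE libraries. Every TIPE library exceeded every vector library, with a log2 fold change of 0.50 ± 0.06 (SE, adjusted p = 1.20e-06, edgeR). The scaffold proteins NOP56 and NOP58 had log2 fold changes of -0.02 ± 0.06 (adjusted p = 0.799, edgeR) and -0.03 ± 0.08 (adjusted p = 0.783, edgeR). NOP58 overlapped between the groups in FPKM, whereas the deposited FPKM of NOP56 was below every vector value in each TIPE library, at 130 to 141 against 142 to 146.

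Among the 4 core proteins of the box H/ACA snoRNPs, which convert uridine to pseudouridine, NHP2 and NOP10 rose. NHP2 (chr5:178149463-178153894, minus strand) was at 71.5, 68.3 and 70.3 FPKM in vector and 84.1, 85.2 and 84.4 FPKM in TIPE libraries. Both groups were tight and apart, and its log2 fold change was 0.34 ± 0.06 (SE, adjusted p = 4.56e-05, edgeR). NOP10 rose by 0.17 on the log2 scale (adjusted p = 0.0193, edgeR), a call kept in 11 of 17 alternatives and lost with library totals, with limma and without vector replicate 1 or 2, among others, at adjusted p of up to 0.155. DKC1, or dyskerin, the pseudouridine synthase itself (chrX:154762742-154777689, plus strand), was at 105, 97.9 and 97.0 FPKM in vector and 94.3, 97.2 and 108 FPKM in TIPE libraries. Its values interleaved between the groups, with a log2 fold change of 0.07 ± 0.06 (adjusted p = 0.378, edgeR) whose sign turned under library totals and under limma. GAR1, the fourth core protein, was at 0.11 ± 0.08 (adjusted p = 0.279, edgeR).

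The small-subunit processome and the later 40S factors held genes of both directions, with 11 of 31 tested higher (35.5%), 7 lower (22.6%) and 13 not passing, and their median was 0.06 on the log2 scale. Among genes at the factors' level, 25.9% were higher and 23.8% lower. With the trend on GC content and gene size removed, 9 were higher (29%) and 2 lower (6.45%), against 17.7% and 16.8% of all genes. The t-UTP proteins bind the precursor first and are linked to its transcription. Of 5 in the set, UTP4 rose, WDR43 fell, and UTP15, WDR75 and NOL11 did not pass. HEATR1, a t-UTP protein outside the set, fell, at -0.23 ± 0.07 (SE, adjusted p = 0.0128, edgeR). It did not pass with that trend removed or without vector replicate 1. UTP4 (chr16:69131291-69231130, plus strand) was at 77.4, 77.5 and 82.5 FPKM in vector and 89.9, 94.2 and 84.4 FPKM in TIPE libraries, a log2 fold change of 0.25 ± 0.06 (SE, adjusted p = 0.00224, edgeR). The lowest TIPE library lay just above the highest vector library. WDR43 (chr2:28894667-28948219, plus strand) was at 55.0, 55.9 and 53.1 FPKM in vector and 44.5, 41.3 and 45.8 FPKM in TIPE libraries, with a log2 fold change of -0.25 ± 0.05 (adjusted p = 0.00104, edgeR). These groups stood clearly apart.

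Both UTP-B proteins in the set rose, whereas those outside it were mixed. TBL3 rose by 0.53 (adjusted p = 6.43e-07, edgeR) and WDR36 fell, at -0.25 (adjusted p = 0.00161, edgeR). WDR3 did not pass, at -0.09 (adjusted p = 0.211, edgeR), and PWP2, at a mean of 0.45 FPKM, was not tested. With the trend on GC content and gene size removed, WDR36 did not pass. UTP18 (chr17:51260546-51297936, plus strand) was at 20.02, 18.0 and 18.2 FPKM in vector and 22.2, 20.6 and 25.6 FPKM in TIPE libraries, without overlap, at a log2 fold change of 0.35 ± 0.07 (SE, adjusted p = 0.000633, edgeR). UTP6 was at 0.22 ± 0.07 (adjusted p = 0.00955, edgeR), although its FPKM overlapped between the groups and it did not pass without vector replicate 3, with library totals or with limma. Of the 4 proteins in the set from the U3 snoRNP and the MPP10 complex, which hold the U3 RNA on the precursor, IMP3, IMP4 and RRP9 rose. UTP3 did not pass. MPHOSPH10, which encodes MPP10 itself and lies outside the set, was lower at -0.36 ± 0.07 (adjusted p = 0.000337, edgeR). With the trend on GC content and gene size removed it was still lower, at -0.27 (adjusted p = 0.00207, edgeR). IMP3 (chr15:75639085-75648706, minus strand) was at 11.5, 10.01 and 10.7 FPKM in vector and 14.5, 15.4 and 16.3 FPKM in TIPE libraries. The TIPE values lay well above the vector values, with a log2 fold change of 0.59 ± 0.08 (adjusted p = 4.14e-06, edgeR). RRP9, the U3-binding WD40 protein, rose by 0.58 ± 0.06 (adjusted p = 4.58e-07, edgeR) and IMP4 by 0.20 ± 0.06 (adjusted p = 0.00733, edgeR), the latter not past the threshold with library totals or without vector replicate 1.

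Of 15 other processome factors tested, 3 rose (20%), 5 fell (33.3%) and 7 did not pass, against 25.9% and 23.8% of genes at the factors' level. NOC4L, the partner of NOP14 (chr12:132144457-132152473, plus strand), was at 8.70, 9.45 and 10.2 FPKM in vector and 12.9, 12.1 and 11.4 FPKM in TIPE libraries. Each TIPE value exceeded the vector values, and the log2 fold change was 0.44 ± 0.09 (SE, adjusted p = 0.000449, edgeR). NOL7 (chr6:13615335-13632739, plus strand) was at 62.4, 57.5 and 58.2 FPKM in vector and 41.5, 39.0 and 52.6 FPKM in TIPE libraries. TIPE replicate 3 was nearest to the vector libraries without reaching them, and the log2 fold change was -0.36 ± 0.08 (adjusted p = 0.000991, edgeR). NOP9 and RRP7A rose by 0.27 and 0.21, both with overlapping FPKM. The RNA helicase DDX10 was at -0.28, and UTP23, UTP25 and UTP20 were at -0.30, -0.23 and -0.17, all past the threshold. UTP20 fell short of it in 9 of 17 alternatives, at adjusted p of up to 0.885, among them those without vector replicate 1, 2 or 3 or TIPE replicate 2 or 3. NOP9 did not pass without vector replicate 2 or TIPE replicate 2, nor RRP7A without vector replicate 1 or 2 or TIPE replicate 2. With library totals and with limma, neither NOP9 nor RRP7A passed. NAT10, which acetylates cytidines of the small-subunit RNA, was at 0.04 ± 0.06 (adjusted p = 0.587, edgeR) and NOP14 at 0.04 ± 0.05 (adjusted p = 0.608, edgeR). UTP14C, a copy of UTP14A, had no counts in any library. It lies on the same strand within ALG11, so that reads there may have been left uncounted or given to ALG11.

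Late 40S factors finish the small subunit on its way to the cytoplasm. BYSL, or bystin (chr6:41921499-41933046, plus strand), was at 29.5, 28.4 and 27.7 FPKM in vector and 33.2, 33.4 and 31.8 FPKM in TIPE libraries, without overlap, at a log2 fold change of 0.28 ± 0.06 (SE, adjusted p = 0.00104, edgeR). LTV1, which also escorts the subunit to export (chr6:143843338-143863812, plus strand), was at 21.02, 24.1 and 20.6 FPKM in vector and 17.9, 17.6 and 19.6 FPKM in TIPE libraries. Its groups were separate by a narrow gap, and its log2 fold change of -0.19 ± 0.08 (adjusted p = 0.0475, edgeR) fell short of the threshold in 9 of 17 alternatives, with adjusted p from 0.00867 to 0.294 and 0.294 without vector replicate 2. NOB1, the endonuclease that makes the final cut at the end of the 18S RNA, rose by 0.24 ± 0.06 (adjusted p = 0.00143, edgeR), while TSR1 and RRP12 did not pass.

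**Figure D3:**
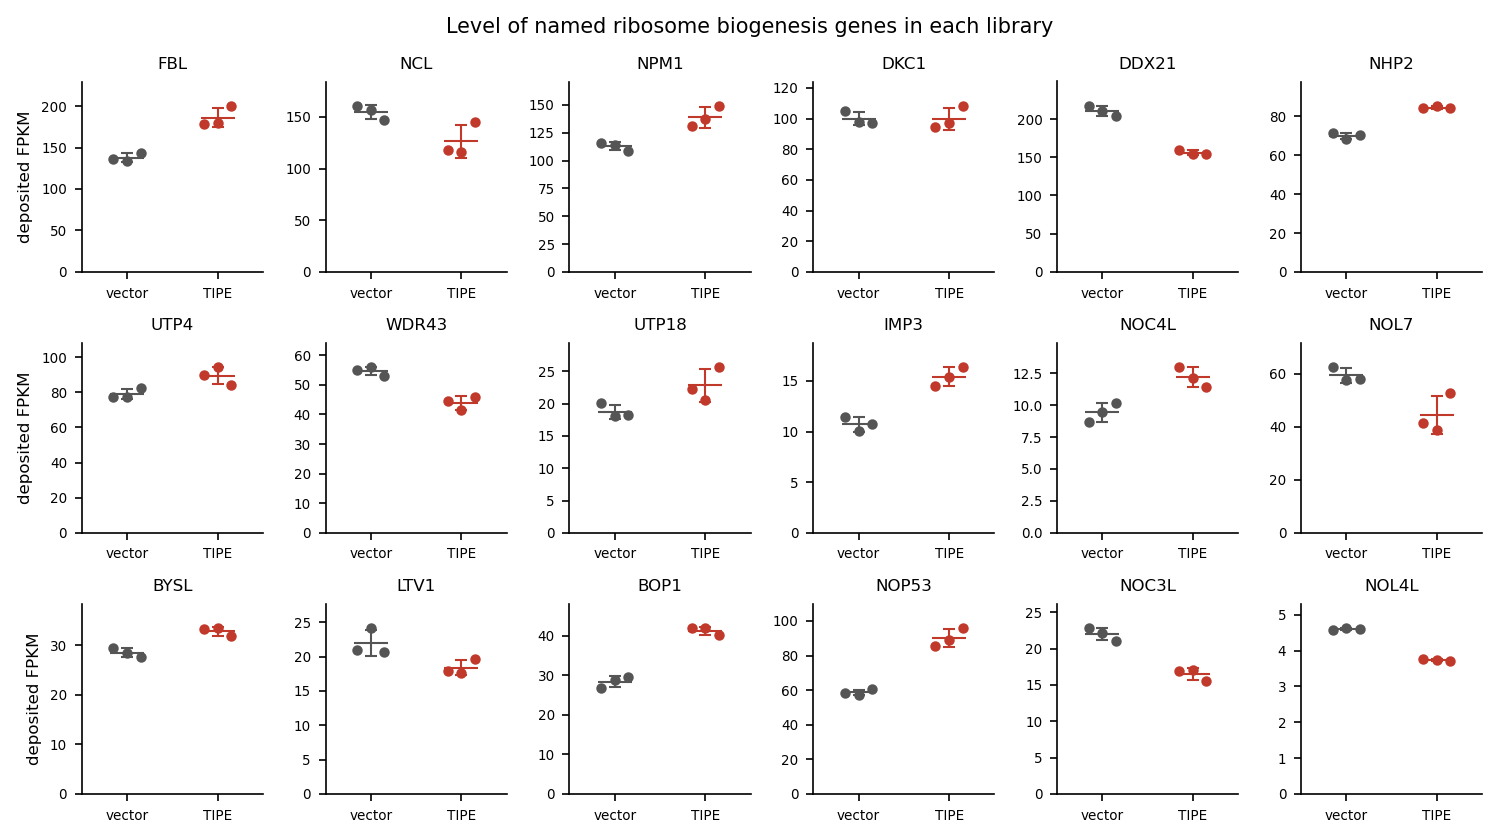
FPKM of the named factors in each of the 6 libraries, 1 point per library, with a line at each group's mean and bars for the SD; each panel starts at 0. BOP1, NOP53, FBL and IMP3 show TIPE points above all vector points, DDX21 and NOC3L show them below, and DKC1 shows them interleaved.

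Large-subunit factors included the factor with the largest rise. Of 16 tested, 7 rose (43.8%), 2 fell (12.5%) and 7 did not pass, against 25.9% and 23.8% of genes at the factors' level. Their median was 0.14 on the log2 scale, and 0.04 with the trend on GC content and gene size removed. With that trend removed, 6 were higher (37.5%) and 1 lower (6.25%), against 17.7% and 16.8% of all genes. All 3 proteins of the PeBoW complex, which processes the RNA between the 5.8S and 28S parts of the precursor, rose. BOP1 (chr8:144262045-144291438, minus strand) was at 26.7, 28.9 and 29.4 FPKM in vector and 41.8, 41.8 and 40.03 FPKM in TIPE libraries. The gap between the groups exceeded the spread within either, with a log2 fold change of 0.61 ± 0.06 (SE, adjusted p = 1.23e-07, edgeR). Its partners rose less in this fit, WDR12 by 0.23 ± 0.06 (adjusted p = 0.00232, edgeR) and PES1 by 0.17 ± 0.06 (adjusted p = 0.0215, edgeR). With the trend on GC content and gene size removed, WDR12 was at 0.43 and BOP1 at 0.38. PES1 overlapped between the groups in FPKM. PES1 did not pass in 8 of 17 alternatives, with library totals, with limma, with the GC and length trend removed (0.02) and without vector replicate 1, vector replicate 2 or TIPE replicate 2, at adjusted p of up to 0.843.

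NOP53, which helps recruit the RNA exosome to the precursor of the 60S subunit (known from yeast), lies at chr19:47745546-47757058 on the plus strand. It was at 58.4, 57.2 and 60.5 FPKM in vector and 85.3, 89.0 and 95.7 FPKM in TIPE libraries. TIPE values were all far above vector values, and the log2 fold change of 0.69 ± 0.06 (SE, adjusted p = 2.11e-08, edgeR) was the highest among the 59 factors. NOP16 rose by 0.47 ± 0.07 (adjusted p = 9.48e-06, edgeR) and RRP1 by 0.23 ± 0.06 (adjusted p = 0.00669, edgeR). The paired factors NOC2L and NOC3L went apart. NOC2L rose by 0.30 ± 0.05 (adjusted p = 0.000185, edgeR). NOC3L (chr10:94333226-94362959, minus strand) was at 22.8, 22.1 and 21.1 FPKM in vector and 16.96, 16.99 and 15.5 FPKM in TIPE libraries, without overlap, at -0.34 ± 0.06 (adjusted p = 0.000119, edgeR). RRP15 fell by 0.20 on the log2 scale (adjusted p = 0.0261, edgeR). RRP1 did not pass with library totals, with limma or without vector replicate 2, nor RRP15 without vector replicate 1 or 2 or TIPE replicate 2. NOP2, a cytosine methyltransferase of the 28S RNA, had 0.16 ± 0.09 (adjusted p = 0.138, edgeR), and NIP7, NOL8, NOL9, NOL12, RRP8 and RRP1B also did not pass.

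Of the NOL symbols outside ribosome assembly, NOL4 had no counts in any library. NOL3, an inhibitor of apoptosis, was at 0.10 ± 0.09 (adjusted p = 0.387, edgeR). NOL4L (chr20:32443059-32585074, minus strand) was at 4.57, 4.62 and 4.60 FPKM in vector and 3.76, 3.75 and 3.72 FPKM in TIPE libraries. These values were nearly constant within each group, and the log2 fold change was -0.23 ± 0.07 (SE, adjusted p = 0.00905, edgeR). Leaving these symbols out, 22 of 57 factors tested were higher, 11 lower and 24 did not pass.

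Within complexes, the balance between partners was compared as the ratio of their FPKM in each library, a comparison chosen after the values were seen. Of 23 pairs in 5 complexes, 12 had ratios that did not overlap between the groups. No share over other gene pairs was computed, and single genes often differed in this way too, since 19% of all genes tested lay apart as higher and 31.5% as lower in FPKM. With 3 libraries against 3, the exact two-sided permutation test cannot give a p under 0.1, and each of the 12 had p = 0.1 (0.192 after Benjamini-Hochberg adjustment over the 23 pairs), so none passed. The ratio of BOP1 to PES1 was 0.543, 0.576 and 0.564 in vector and 0.822, 0.750 and 0.711 in TIPE libraries, a rise in the mean log2 ratio of 0.44. For FBL to NOP56 it was 0.932, 0.944 and 0.990 in vector and 1.38, 1.33 and 1.41 in TIPE libraries, a difference of 0.52. For UTP4 to WDR43 it was 1.41, 1.39 and 1.55 in vector and 2.02, 2.28 and 1.84 in TIPE libraries, a difference of 0.50. These pairs were ordered the same way in all 3 TIPE libraries. By contrast, WDR12 to PES1 differed by 0.05 and NOP56 to NOP58 by 0.01, both with overlapping groups. All these ratios use the deposited FPKM, from which the trend on GC content and gene size was not removed.

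**Figure D4:**
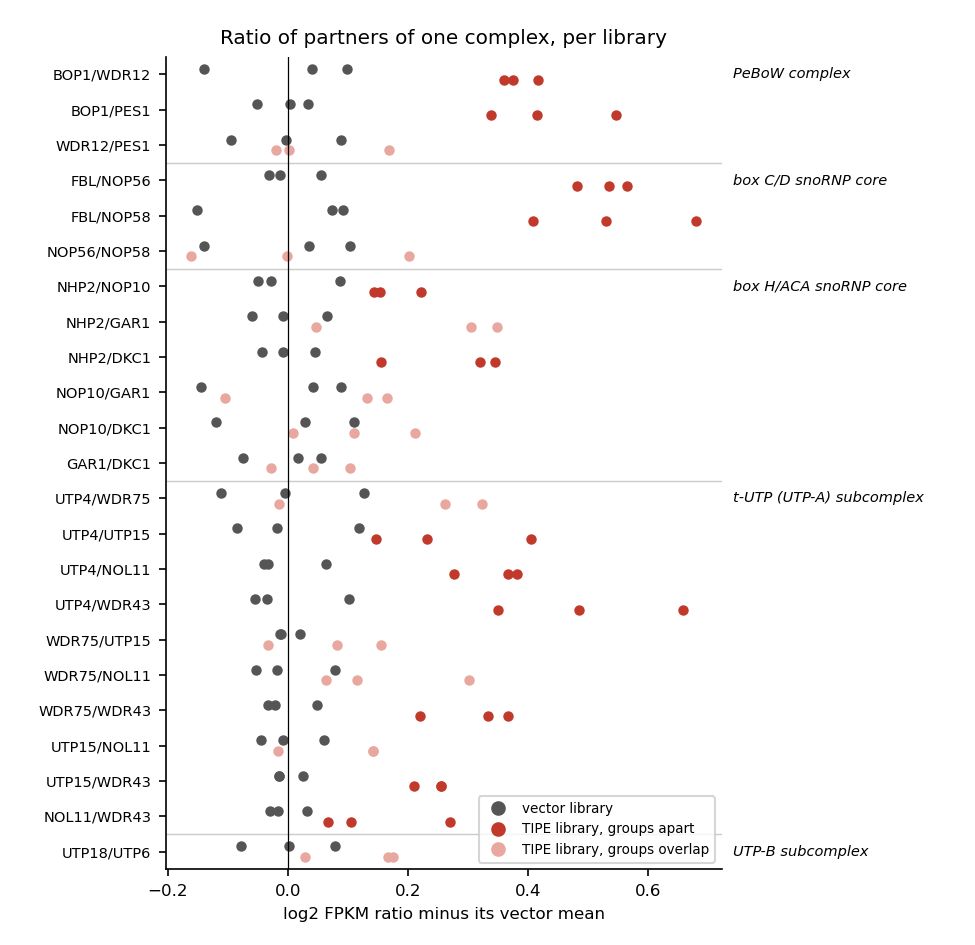
Log2 ratio of the FPKM of 2 genes of the same complex in each library, minus the vector mean of that ratio, for all 23 pairs, with vector and TIPE libraries as separate points and paler points where the groups overlap. The TIPE points of BOP1/PES1, FBL/NOP56 and UTP4/WDR43 lie above all vector points, at mean differences of 0.44, 0.52 and 0.50, whereas those of NOP56/NOP58 and WDR12/PES1 overlap the vector points.

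The direction of change followed the GC content of the transcript. Over the 59 factors, the log2 fold change and GC content had a Pearson r of 0.67 and a Spearman rho of 0.65, across genes that share the same 6 libraries and are not independent replicates. Over all 14115 genes with a GC value the figures were 0.31 and 0.42. Of the 20 factors of lowest GC (35.2 to 44.8%), 3 were higher (15%) and 9 lower (45%), and their median was -0.12. Over all genes in that range 8.51% were higher and 37.5% lower, and the median was -0.16. Of the 19 factors of highest GC (54.1 to 65.2%), 14 were higher (73.7%) and 0 lower, with a median of 0.28. Over all genes in that range 36.2% were higher and 6.73% lower, and the median was 0.16. The count of those lower was also 0 at an unadjusted p under 0.05 by edgeR, and by DESeq2 and limma. In these 19 stand BOP1 at 65.2%, NOP53 at 61.1% and RRP9 at 60.9% GC.

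After a correction that removes, library by library, the dependence on GC content and gene size, 19 factors were higher (32.2%) and 5 lower (8.47%), against 17.7% and 16.8% of all genes. The median was 0.04. The correlation with GC fell to r = 0.23 and rho = 0.25. Of all 5902 genes that passed before this step, 3777 passed again in the same direction. Of the 22 factors higher before, 15 remained higher, among them NOP53 at 0.53 (adjusted p = 4.97e-07, edgeR), BOP1 at 0.38 (adjusted p = 1.28e-05, edgeR) and FBL at 0.36 (adjusted p = 2.48e-05, edgeR). NPM1 and WDR12, both of low GC, had larger values of 0.51 and 0.43. The 7 that no longer passed were BYSL, IMP4, NOB1, NOC4L, PES1, RRP1 and RRP7A. Of the 12 lower before, DDX21, NOC3L, NOL4L, NOL7 and WDR43 remained lower, and DDX10, LTV1, NCL, RRP15, UTP20, UTP23 and UTP25 no longer passed. NOL8, UTP11, UTP15 and WDR75 passed as higher only after this step, and no factor that passed in one direction passed in the other. Some values changed sign without passing afterwards, such as UTP20 from -0.17 to 0.02 and RRP15 from -0.20 to 0.03. Among the 19 factors of highest GC, 8 were then higher and 0 lower, where 17.9% of all genes in that range were higher and 15.8% lower.

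**Figure D5:**
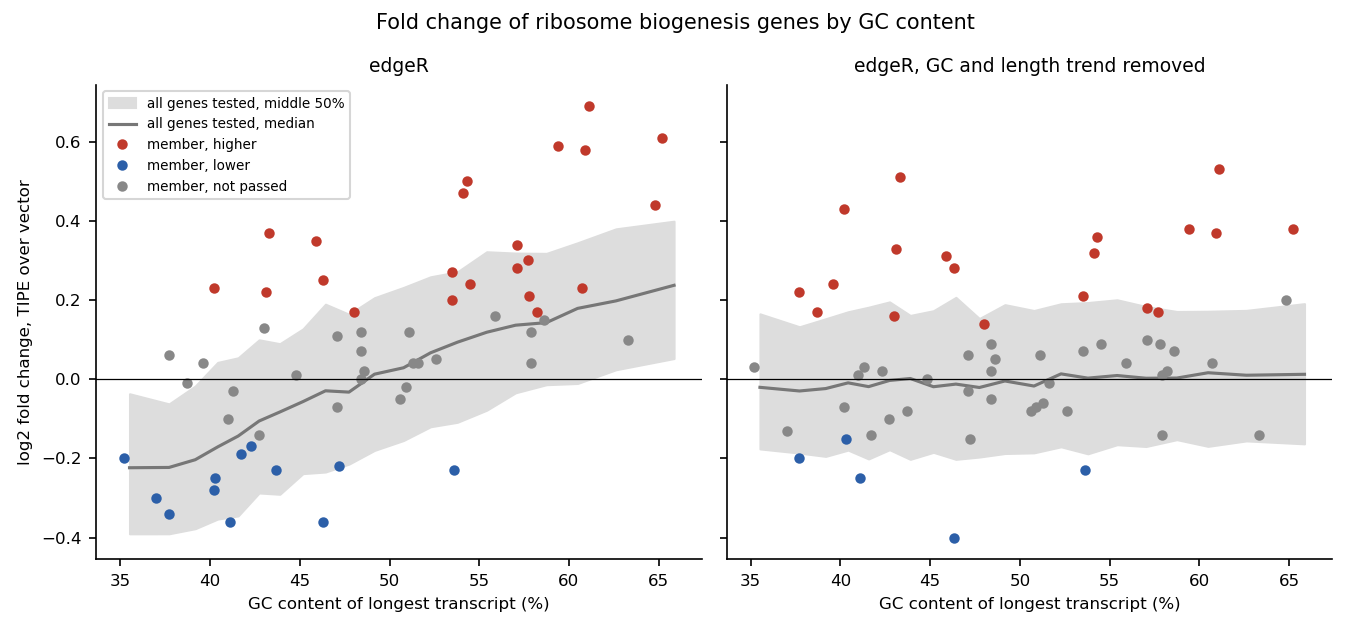
Log2 fold change (TIPE over vector) of the 59 factors against the GC content of their transcript in percent, before and after the correction for GC content and gene size. Before the step the values rise with GC (r = 0.67), and after it they do so less (r = 0.23).

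Counts may also be shared between overlapping genes, since the sources used here do not say whether counting used strand. Of the 61 genes, 11 overlap a protein-coding gene on the opposite strand with a mean of 0.5 FPKM or more. NOL7, at a mean of 51.8 FPKM, overlaps RANBP9, at 30.1 FPKM. NHP2 (77.3 FPKM) overlaps RMND5B (4.62 FPKM) and IMP3 (13.1 FPKM) overlaps SNX33 (2.51 FPKM). In 2 other cases the neighbour is the higher gene. NOP16, at 29.9 FPKM, overlaps HIGD2A, at 61.2 FPKM. UTP23, at 11.6 FPKM, overlaps EIF3H and RAD21, at 54.3 and 31.1 FPKM. UTP4 overlaps CHTF8 on the opposite strand and SNTB2 on its own strand. Reads of such pairs cannot be told apart, and the values of these genes are uncertain to that degree. The snoRNAs encoded inside 8 of the genes added little, since 13 of 21 such rows were at 0 and the highest stood at 2.90 FPKM in this poly(A) protocol.

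Promoters of the factors were searched for 4 motifs known from housekeeping and ribosome-related genes, on both strands, in the 250 bases before the RefSeq start (GRCh38.p14). Windows were found for 55 of the 61 genes. CACGTG, the E-box bound by MYC with MAX, was in 9 windows (16.4%), against 9.14% of 9636 windows of genes tested and 7.39% of 18346 windows in all. GCATGCGC, the core of the NRF1 element, was in 6 windows (10.9%, against 5.1% and 3.48%), CCGGAAGT, an ETS element, in 7 (12.7%, against 7.67% and 4.6%), and AAGATGGC, the core of a YY1 element, in 3 (5.45%, against 2.07% and 1.43%). The E-box occurred in factors of every outcome, in IMP4, NOP10, UTP18 and UTP4 among the higher, in NOL7 and UTP20 among the lower, and in NAT10, NOL8 and UTP14A among those that did not pass. A match is a description of letters and not a site in use, and no binding was measured. The 5 stretches below show this mixture, with the motif matches in capitals and each sequence written along the strand of its gene. UTP4 and UTP18 rose, NOL7 and DDX21 fell, and NOP53 had the largest rise. UTP18 and NOL7, which moved oppositely, both hold an E-box followed by the NRF1 core on both strands, where the overlapping matches join into a longer run of capitals. In UTP4 the capitals ACTTCCGG are CCGGAAGT on the other strand, and its RefSeq start lies 1358 bp downstream of the deposited gene's start.
UTP4 promoter, chr16:69132572-69132648, plus strand: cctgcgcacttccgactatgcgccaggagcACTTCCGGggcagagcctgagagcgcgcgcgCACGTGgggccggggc
UTP18 promoter, chr17:51260427-51260545, plus strand: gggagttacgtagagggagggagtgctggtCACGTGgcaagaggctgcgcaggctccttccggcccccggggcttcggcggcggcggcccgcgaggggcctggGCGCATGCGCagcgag
NOL7 promoter, chr6:13615156-13615277, plus strand: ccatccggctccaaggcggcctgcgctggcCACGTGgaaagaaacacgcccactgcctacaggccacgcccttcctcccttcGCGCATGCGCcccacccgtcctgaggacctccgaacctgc
DDX21 promoter, chr10:68956080-68956147, plus strand: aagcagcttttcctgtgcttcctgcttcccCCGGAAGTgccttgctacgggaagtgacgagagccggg
NOP53 promoter, chr19:47745384-47745451, plus strand: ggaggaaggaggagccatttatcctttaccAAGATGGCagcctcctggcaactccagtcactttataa

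Ribosome biogenesis genes outside the set also included genes of both directions. Of 93 further assembly factors, 92 were tested. Of these, 29 were higher (31.5%, against 20.9% of all genes), 17 lower (18.5%, against 20.7%) and 46 did not pass. Among genes at the factors' level, 25.9% were higher and 23.8% lower. The median of the 92 was 0.04 on the log2 scale. With the trend on GC content and gene size removed, 27 were higher (29.3%, against 17.7% of all genes) and 12 lower (13%, against 16.8%). The balance of higher and lower turned with the scaling, to 18 higher and 29 lower with library totals. By limma on log2(FPKM + 1), 15 were higher and 23 lower. All genes tested turned in the same way, with 15% higher and 27.3% lower with library totals. By limma, 13.5% of all genes were higher and 22.8% lower. The largest rises were WDR18, of a complex that processes the 60S precursor, from 10.02 ± 0.591 to 16.2 ± 0.594 FPKM (SD, n = 3 each; log2 fold change 0.77, adjusted p = 1.65e-07, edgeR), then EIF6 and PPAN at 0.57 and 0.54. EIF6 keeps the 60S subunit from joining the 40S until SBDS helps to release it. EIF6 was at 137, 134 and 146 FPKM in vector and 198, 198 and 194 FPKM in TIPE libraries (adjusted p = 1.80e-07, edgeR). SBDS went the other way, at 159.7, 168 and 153 FPKM in vector and 106, 107 and 122 FPKM in TIPE libraries, a log2 fold change of -0.45 ± 0.06 (adjusted p = 5.92e-06, edgeR). In both genes the groups were far apart. The other large falls were ZNHIT6, an assembly factor of the C/D snoRNPs, at -0.50 and ESF1 at -0.45.

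Transcription of the precursor and its decay involve further genes. Of 16 genes of RNA polymerase I transcription and MYC, 6 were higher (37.5%), 2 lower (12.5%) and 8 did not pass. For comparison, 20.9% of all genes tested were higher and 20.7% lower, and 25.9% and 23.8% of genes at the factors' level. The 2 lower were POLR1F, at -0.57 ± 0.07 (SE, adjusted p = 3.40e-06, edgeR), and RRN3, at -0.30 ± 0.06 (adjusted p = 0.000192, edgeR). RRN3 is the initiation factor that binds RNA polymerase I at the subunit encoded by POLR1F. MYC was at 330.4, 344 and 340.3 FPKM in vector and 357, 357 and 401 FPKM in TIPE libraries, with no overlap, a log2 fold change of 0.20 ± 0.06 (adjusted p = 0.00788, edgeR) that became 0.10 (adjusted p = 0.194, edgeR) after the GC and length step. MYC also did not pass with library totals, with limma or without vector replicate 1. Of 14 RNA exosome genes, 5 were higher (35.7%), among them EXOSC4 and EXOSC5 at 0.54 and 0.52, and 2 lower (14.3%), DIS3 at -0.30 and MTREX at -0.26. After the GC and length step neither of these passed, at -0.06 (adjusted p = 0.42, edgeR) and -0.09 (adjusted p = 0.162, edgeR). After it, 6 exosome genes were higher (42.9%, against 17.7% of all genes). Cytosolic ribosomal protein genes moved more uniformly than the assembly factors, with 74 of 81 tested higher, 0 lower and a median of 0.44 on the log2 scale, or 72 higher and 0 lower after the GC and length step. None was lower at an unadjusted p under 0.05 by edgeR, or by DESeq2 or limma.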

How the data were processed

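The authors deposited a table of 60605 Ensembl genes with, per the file headers, a raw count and an FPKM value per library and the exonic gene size. Each deposited FPKM was matched within 0.005 by the count per kilobase of that size, scaled to the library's total count. Per the submitters' processing notes, reads were aligned with HISAT2 2.0.1, and hg38 was the build. The tool, annotation and strand setting behind the counts were not given in the sources used here.

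Testing was limited to a mean of 0.5 FPKM or more over the 6 libraries and was run on the deposited counts with edgeR 4.0.16 (R 4.3.3), with TMM factors of 0.962 to 1.03, the group as the only term, and a two-sided quasi-likelihood test. P-values were adjusted by the Benjamini-Hochberg method over 14205 genes, with a threshold of 0.05. Standard errors are the fold change on the log2 scale divided by the square root of F. The biological coefficient of variation was 0.0549. GC content and gene types came from GENCODE release 29, and all 61 factors had a GC value. The trend on GC content and log exonic length was removed per library with natural splines of 5 degrees of freedom. Alternatives used limma 3.58.1, DESeq2 1.42.0, other library factors and filters, a replicate block, and each library left out. Ratios within complexes were tested with scipy 1.17.1. The edgeR fit was first tested on simulated data in which 200 of 14205 genes changed, far fewer than passed in the real data. It recovered 50% of 1.25-fold, 76% of 1.5-fold, 86% of 2-fold and 100% of 4-fold changes, and 7.14% of its calls were false. A factor that did not pass may therefore still have changed by a small amount. Between libraries of 1 group the chi-square per gene was 2.35 to 8.4, above sampling noise, and between groups it was 24.2 to 45.1.

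The factors, role groups and gene lists were chosen with earlier results of these data known. Values for each library are given for FBL, NCL, NPM1 and DKC1, and for the largest rise and fall past the threshold in each role group with at least 1 FPKM. Outside the set, the 3 largest rises and 3 largest falls among other biogenesis factors are named, while MYC, the RNA polymerase I and the exosome genes were named after their values were seen. So were SNU13, MPHOSPH10, HEATR1, TBL3, WDR3, WDR36 and PWP2, as further proteins of the complexes described. The ratios and the background of genes at the factors' level were added after seeing the data. The NRF1 motif was shortened to its core after matches of a longer form had been seen.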

Additional observations from a re-analysis of the deposited data

How the results depend on the processing

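Across 17 alternatives, 12 of the 22 higher factors (BOP1, FBL, IMP3, NHP2, NOC2L, NOP16, NOP53, NPM1, RRP9, UTP18, UTP4 and WDR12) and 5 of the 12 lower ones (DDX21, NOC3L, NOL4L, NOL7 and WDR43) passed in each. No matching count over all genes is given. For the 24 genes named by rule, 386 values kept their direction and side of the threshold, 19 kept the direction but no longer passed, and 3, all of DKC1, turned sign, to -0.002 with library totals and -0.003 with limma at either pseudocount. The cause was not tested.

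The lower factors numbered 5 with the GC and length offset, with or without the replicate block, against 12. The median log2 fold change of all 59 factors, 0.097, became 0.027 with library totals, 0.024 and 0.026 with limma at pseudocounts of 1 and 0.1, and 0.037 with the offset, with or without the block. The other biogenesis factors counted 18 higher and 29 lower with library totals and 15 higher with limma at either pseudocount, against 29 and 17, and 27 lower without TIPE replicate 3. Of all genes tested, 15% were higher and 27.3% lower with library totals, and 13.5% were higher by limma on log2(FPKM + 1). Upper-quartile factors gave 24 higher and 10 lower factors, and 5892 of all genes passed, against 5902.

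Leaving out each library in turn gave 17 to 25 factors higher, 8 to 12 lower, a median of 0.068 to 0.109, other biogenesis factors of 21 to 32 higher and 14 to 27 lower, and 4491 to 6337 genes in all. Same-numbered libraries did not deviate together (correlations of -0.006, -0.02 and -0.051), so the numbers were not taken as pairs. With the replicate block, 22 factors were higher and 11 lower, and 5601 of all genes passed, against 5902. With 3 libraries a group, small changes are measured with least precision in the factors of lowest counts, such as NOL12, whose log2 fold change had a standard error of 0.12.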
